A study of Mus musculus with 12 samples.

Results

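The 76 genes described here are named as proteins of the mitochondrial ribosome. A symbol alone does not show that a product is part of it. They were taken by symbol, as every gene named Mrpl or Mrps plus a number, pseudogenes left out, and they make up 76 of the 19494 genes with a symbol on the array. Of the 76, 48 carry an Mrpl symbol and 28 an Mrps symbol, and each was measured by 1 probe set. The rule itself uses no measured value. Expression was measured on arrays in hematopoietic stem cells (HSC, sorted as CD48-CD150+ cells) and multipotent progenitors (MPP, sorted as CD48+CD150- cells), both within the LSK fraction of mouse bone marrow. LSK denotes cells that lack lineage markers and carry Sca-1 and Kit. The 4 groups were HSC and MPP of Nfat5 fl/fl Vav-Cre mice, labelled KO and NFAT5-deficient, and HSC and MPP of Nfat5 +/+ Vav-Cre mice, labelled WT. The WT animals thus carry the Vav-Cre transgene too, and the deletion is not limited to the sorted cells, since the Vav promoter drives Cre throughout the blood lineage. NFAT5 is a transcription factor best known for the response to osmotic stress. All mice were untreated and at steady state, and the labels used here give no age. Each group had 3 arrays, the KO arrays from mice 2, 11 and 70 and the WT arrays from mice 3, 12 and 64, with HSC and MPP sorted from the same 6 animals. The groups allow KO to be set against WT within each population, HSC against MPP within each genotype, and the genotype differences of the populations against each other.

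The mitochondrial ribosome translates the few proteins encoded by mitochondrial DNA, all of them subunits of oxidative phosphorylation. All of its own proteins are encoded in the nucleus, made in the cytosol and imported, so their messenger RNAs are ordinary nuclear transcripts. The large subunit forms the peptide bond and the small subunit decodes the messenger RNA. Many of the proteins descend from bacterial ribosomal proteins, and others exist only in mitochondria. Stem cells at rest are known for low mitochondrial activity, and dividing progenitors for a higher one. Nuclear respiratory factor 1 (NRF1) and the ETS family factor GABP are the textbook regulators of nuclear genes for mitochondrial proteins. By textbook assignment 45 of the 76 proteins have a bacterial counterpart and 31 are specific to mitochondria. Mrps18a, Mrps18b and Mrps18c are all relatives of bacterial S18. Of these, Mrps18c was counted among the 45, and Mrps18a and Mrps18b among the 31. The proteins of Mrps18a and Mrps30 sit in the large subunit despite their symbols.

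The promoters of 4 members whose values are described below, or which hold a core of the NFAT family, show what these genes have before their starts. The sequences are the 250 bases before the gene start, read 5′ to 3′ in the direction of transcription, from RefSeq on GRCm38.p6. Capitals mark matches to GCGCATGC, the core bound by NRF1, to CCGGAAG, a core bound by ETS factors such as GABP, or to TGGAAA, the core bound by the NFAT family. Each was searched on both strands, and TGGAAA and CCGGAAG share the letters GGAA without either one containing the other. Mrpl17 (chr7:105811088-105811337, minus strand) held an ETS core starting 237 bases before the gene start and an NRF1 core 11 bases before it. Mrps18b (chr17:35916441-35916690, minus strand) held an NRF1 core in reverse, 223 bases before its start. Mrpl3 (chr9:105053018-105053267, plus strand) held an ETS core 19 bases before its start. Mrpl18 (chr17:12916092-12916341, minus strand) held an ETS core 240 bases and an NFAT core 178 bases before its start.
Mrpl17: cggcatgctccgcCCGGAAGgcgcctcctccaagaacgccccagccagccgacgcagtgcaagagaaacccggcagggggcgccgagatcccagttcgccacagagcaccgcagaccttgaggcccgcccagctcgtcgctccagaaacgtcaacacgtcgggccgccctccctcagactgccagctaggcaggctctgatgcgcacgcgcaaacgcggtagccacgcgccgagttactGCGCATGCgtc
Mrps18b: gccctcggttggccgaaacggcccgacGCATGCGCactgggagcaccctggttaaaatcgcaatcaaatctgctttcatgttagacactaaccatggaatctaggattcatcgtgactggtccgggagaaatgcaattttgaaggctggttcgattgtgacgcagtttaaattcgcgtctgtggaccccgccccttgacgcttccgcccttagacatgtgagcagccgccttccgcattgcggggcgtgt
Mrpl3: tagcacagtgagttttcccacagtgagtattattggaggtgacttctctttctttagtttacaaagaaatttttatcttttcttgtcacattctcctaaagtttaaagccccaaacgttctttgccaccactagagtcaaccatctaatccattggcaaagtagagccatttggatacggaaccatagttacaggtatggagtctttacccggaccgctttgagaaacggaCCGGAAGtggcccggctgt
Mrpl18: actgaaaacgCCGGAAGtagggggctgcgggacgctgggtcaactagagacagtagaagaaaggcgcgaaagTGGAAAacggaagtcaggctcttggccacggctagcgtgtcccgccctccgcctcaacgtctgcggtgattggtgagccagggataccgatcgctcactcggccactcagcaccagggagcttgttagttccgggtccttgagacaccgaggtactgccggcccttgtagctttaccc

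RefSeq promoter windows were matched for 67 of the 76 genes, in 73 windows since some genes have more than 1 start. The NRF1 core lay in 8 of the 73 windows (11%), against 2.26% of all 32851 windows of the same length. The ETS core lay in 17 (23.3%), against 6.91% of all windows. Either core lay in 23 (31.5% against 8.85%), and both cores in the windows of Mrpl17 and Mrpl22 (2.74% against 0.314%). The NFAT core lay in 11 windows of 9 genes (15.1% against 18.6%), namely Mrpl2, Mrpl9, Mrpl18, Mrpl24, Mrpl36, Mrpl52, Mrpl57, Mrps12 and Mrps18c. Base composition differed as well: the median GC content was 58.4% in the member windows and 52.4% in all windows, and the shares were not matched on it. Windows of 9 genes were not analysed here (Mrpl4, Mrpl13, Mrpl15, Mrpl19, Mrpl38, Mrpl54, Mrps28, Mrps34 and Mrps35). A match is a run of letters and no measurement of binding.

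The arrays carried the identity of the sorted populations. Slamf1, which encodes CD150, had a mean log2 signal of 8.04 ± 0.35 (SD, n = 3) in WT HSC and 5.80 ± 0.22 in WT MPP, and Cd48 had 5.74 ± 0.35 and 8.55 ± 0.52. Of 9 HSC markers all had a higher mean in HSC in both genotypes, and of 8 MPP markers all had a lower one. Nfat5 signal was 7.69 ± 0.31 in KO and 8.60 ± 0.36 in WT HSC, and 7.16 ± 0.25 in KO and 8.03 ± 0.24 in WT MPP. The groups did not overlap in either population (exact permutation test, two-sided, p = 0.1, the smallest p that 3 against 3 arrays allow). 1 array varied most: over genes, deviations from the group means had an SD of 0.438 on the array of HSC from KO mouse 2 and of 0.276 to 0.378 on the other 11 arrays. The mean log2 signal of 10 neutrophil markers also varied between arrays. In HSC it ranged between 5.82 and 7.82 for WT mice and between 5.63 and 7.55 for KO mice. In MPP the ranges were 4.84 to 6.99 (WT) and 5.82 to 6.67 (KO).

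All 76 genes passed the filter that removed the 25% of genes with the lowest mean signal (under 4.96 on the log2 scale), which left 14620 genes for testing. The median over the 76 of the mean log2 signal was 7.37, against 6.48 over the genes tested, and 64 of the 76 lay above that second value. Signals differ between probe sets for reasons other than RNA amount, so these values give no order of abundance. Mrpl42, Mrps14 and Mrpl33 had the brightest probe sets (mean log2 signal of 10.94, 10.1 and 10.06). Mrps22, Mrpl10 and Mrpl36 had the dimmest (5.23, 5.29 and 5.51). Mrpl10 encodes the stalk base protein on which copies of the Mrpl12 product sit. In each bulk sample, fewer cells of a type and less RNA per cell cannot be told apart.

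Taken over all members, the levels of KO and WT overlapped within each population. On the mean of the 76 log2 signals, WT HSC read 7.53, 7.51 and 7.31 (mice 3, 12 and 64) and KO HSC read 7.49, 7.49 and 7.47 (mice 2, 11 and 70). WT MPP read 7.63, 7.51 and 7.62, and KO MPP read 7.64, 7.69 and 7.58. The KO HSC values lay inside the range of WT HSC, and the ranges of KO and WT MPP overlapped. Between populations, all KO HSC arrays lay below all KO MPP arrays, and HSC read lower than MPP of the same animal in 5 of the 6 mice, with equal values (7.51) in WT mouse 12. The array of WT mouse 64 was the low one in HSC: it had the lowest signal of its group for 42 of the 76 genes (55.3%), against 29.9% of the genes tested. Group means were 7.45 ± 0.12 for WT HSC, 7.48 ± 0.014 for KO HSC, 7.58 ± 0.068 for WT MPP and 7.64 ± 0.056 for KO MPP (SD, n = 3 each).

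**Figure D1:**
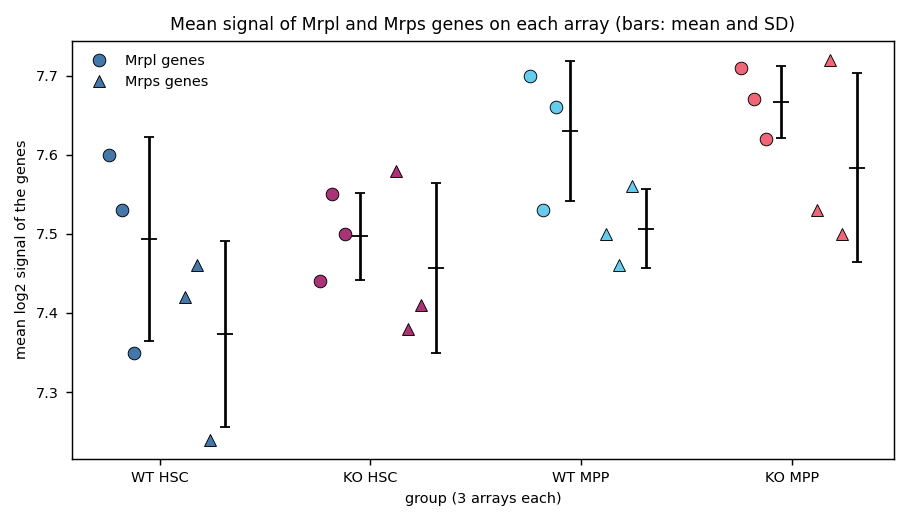
Mean log2 signal of the 48 Mrpl genes (circles) and the 28 Mrps genes (triangles) on each array, by group, with the mean and SD of the 3 arrays beside each set of points. Mrpl means run from 7.35 on the HSC array of WT mouse 64 to 7.71 on the MPP array of KO mouse 2, and the axis does not start at 0 because the scale is logarithmic.

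The genes differed in how much they varied between mice of a group. The within-group SD had a median of 0.324 over the 76 genes and 0.286 over the genes tested. It was smallest for Mrpl34 (0.133) and largest for Mrpl47 (0.847), which encodes the mitochondrial relative of bacterial L29. Over all 12 arrays, Mrpl49 spanned 0.43 log2 units and Mrpl20 spanned 3.05, from 5.86 on the HSC array of KO mouse 2 to 8.91 on the MPP array of KO mouse 70. The number of arrays limits the precision: the 95% interval of a difference between groups reached a median of 0.558 log2 units to either side, from 0.317 for Mrpl34 to 1.34 for Mrpl47.

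**Figure D2:**
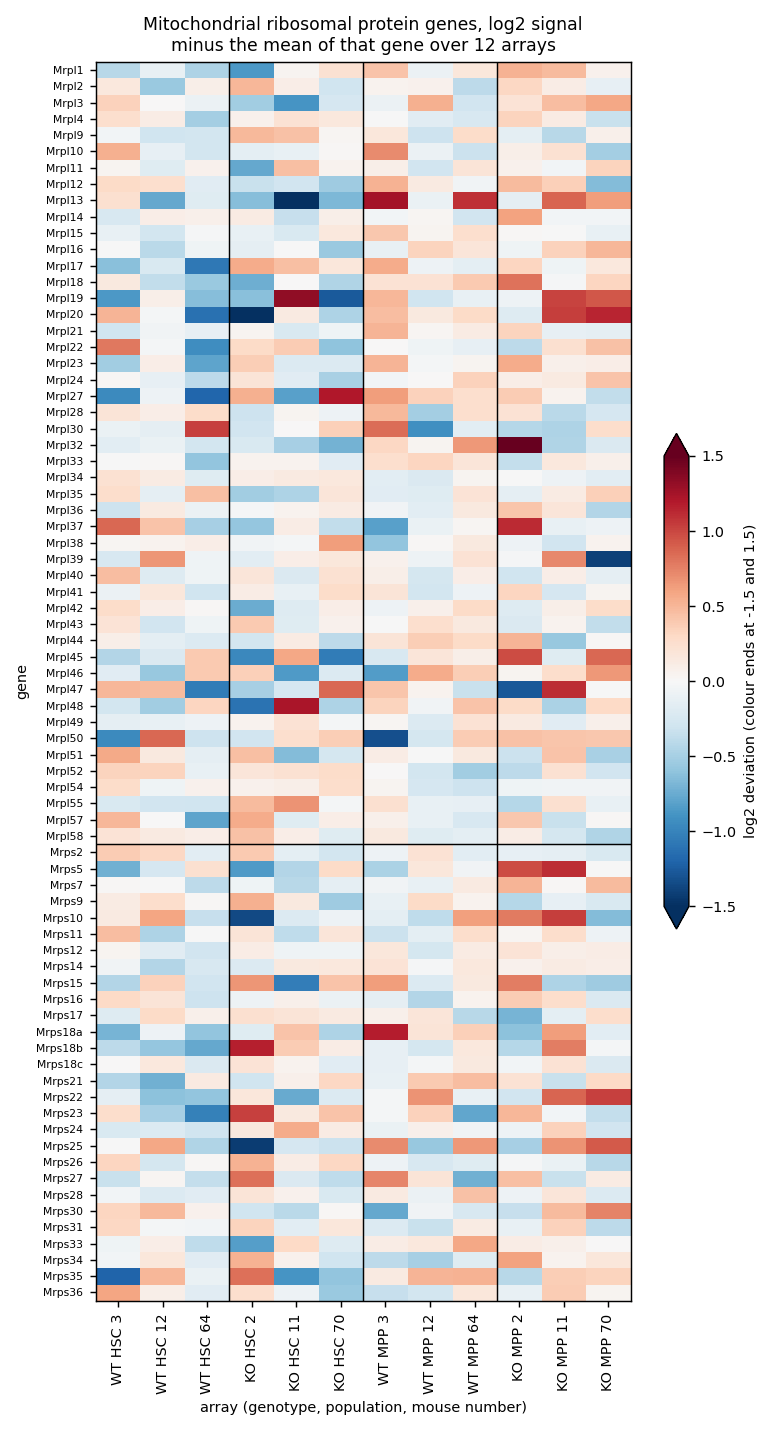
Log2 signal of each of the 76 genes (rows, Mrpl above Mrps) on each of the 12 arrays (columns), minus that gene's mean over the arrays; red is above and blue below the mean. No group of 3 columns is of 1 colour down all rows, and rows such as Mrpl19, Mrpl20 and Mrpl47 change colour between mice of the same group.

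Whether loss of NFAT5 changed these genes in stem cells was asked by setting KO HSC against WT HSC. None of the 76 passed the test (limma, Benjamini-Hochberg adjusted p under 0.05), and 0.0% of the 14620 genes did. At an unadjusted p under 0.05 there were 8 members (10.5%), against 6.29% of all genes. Without WT mouse 64 there were 4 (5.26% against 5.56%), and without WT mouse 12 there were 9 (11.8% against 6.46%). The median difference, KO minus WT, was 0.05 over the members and 0.02 over all genes. The difference was above 0 for 43 of the 76 (56.6% against 53.4% of all genes). The arrays of KO and WT did not overlap for 10 (13.2% against 8.87%), with KO higher for Mrpl9, Mrpl17, Mrpl49, Mrpl55, Mrps18b and Mrps24 and lower for Mrpl3, Mrpl12, Mrpl28 and Mrps30.

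Mrpl17 came nearest to the threshold. Its product, the relative of bacterial L17, lies near the exit of the tunnel through which the new chain leaves the large subunit. Log2 signals of Mrpl17 in HSC were 7.92, 8.32 and 7.48 in WT and 9.11, 9.0 and 8.72 in KO. Every KO HSC array was above every WT HSC array, and WT mouse 64 was lowest. The difference was 1.04, with a 95% interval from 0.49 to 1.59 (adjusted p = 0.523), which is 2.06-fold, and it was 0.82 without mouse 64. In MPP the gene read 9.11, 8.47 and 8.41 in WT and 8.87, 8.49 and 8.71 in KO, so that WT HSC alone stood low among the 4 groups. The RefSeq promoter of Mrpl17 is the one printed above with both the ETS and the NRF1 core.

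Mrps18b had the largest difference in stem cells. It is 1 of 3 mammalian relatives of bacterial S18, and its product sits in the small subunit. In HSC its log2 signals were 6.05, 5.87 and 5.68 in WT and 7.61, 6.83 and 6.56 in KO. The KO arrays were all higher, the array of mouse 2 most of all. The difference was 1.14 (95% interval 0.42 to 1.85, adjusted p = 0.638), and 0.83 without the HSC array of mouse 2, the array that varied most. The other relatives gave smaller differences: 0.38 for Mrps18a (interval -0.43 to 1.19) and 0.05 for Mrps18c (interval -0.33 to 0.43).

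Among the other large subunit genes, Mrpl3 was lower in KO stem cells. The Mrpl3 protein reaches towards the peptidyl transferase centre, where peptide bonds form. WT HSC gave log2 signals of 7.74, 7.40 and 7.31, and KO HSC gave 6.88, 6.51 and 7.15. The groups were separate, with a difference of -0.64 (interval -1.17 to -0.11, adjusted p = 0.754). Mrpl55, the relative of bacterial L31, read 6.06, 6.01 and 5.99 in WT and 6.77, 6.96 and 6.26 in KO. That is a difference of 0.64 (interval 0.16 to 1.12, adjusted p = 0.691), with WT arrays close together and KO arrays spread. Mrpl9 differed by 0.52 (interval 0.07 to 0.98). Mrpl27, whose bacterial counterpart lies at the peptidyl transferase centre, differed by 1.04 (interval 0.03 to 2.04), but its KO arrays at 8.27, 6.92 and 8.93 overlapped the WT arrays at 6.78, 7.66 and 6.55. Without mouse 70 that value was 0.60, and without mouse 11 it was 1.60. Mrpl12, the stalk protein, differed by -0.52 (interval -1.14 to 0.11), Mrpl35 by -0.46 and Mrpl42 by -0.42, or -0.19 without the HSC array of mouse 2.

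Of the small subunit genes, Mrps24 encodes the relative of bacterial S3 at the entry of the messenger RNA channel. Its HSC signals were 6.09, 6.11 and 6.02 in WT and 6.46, 6.88 and 6.44 in KO, a difference of 0.52 (interval 0.11 to 0.93, adjusted p = 0.697). Mrps23 differed by 0.95 (interval 0.09 to 1.81) with overlapping arrays. The 95% interval lay within a 2-fold change either way for 49 of the 76 genes, and for the other 27 it reached past a 2-fold change. The 9 neutrophil markers tested had a median difference of -0.87 in the same comparison, 7 of them below 0, with 0 called and 0 at an unadjusted p under 0.05; their part in the results was not tested.

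**Figure D3:**
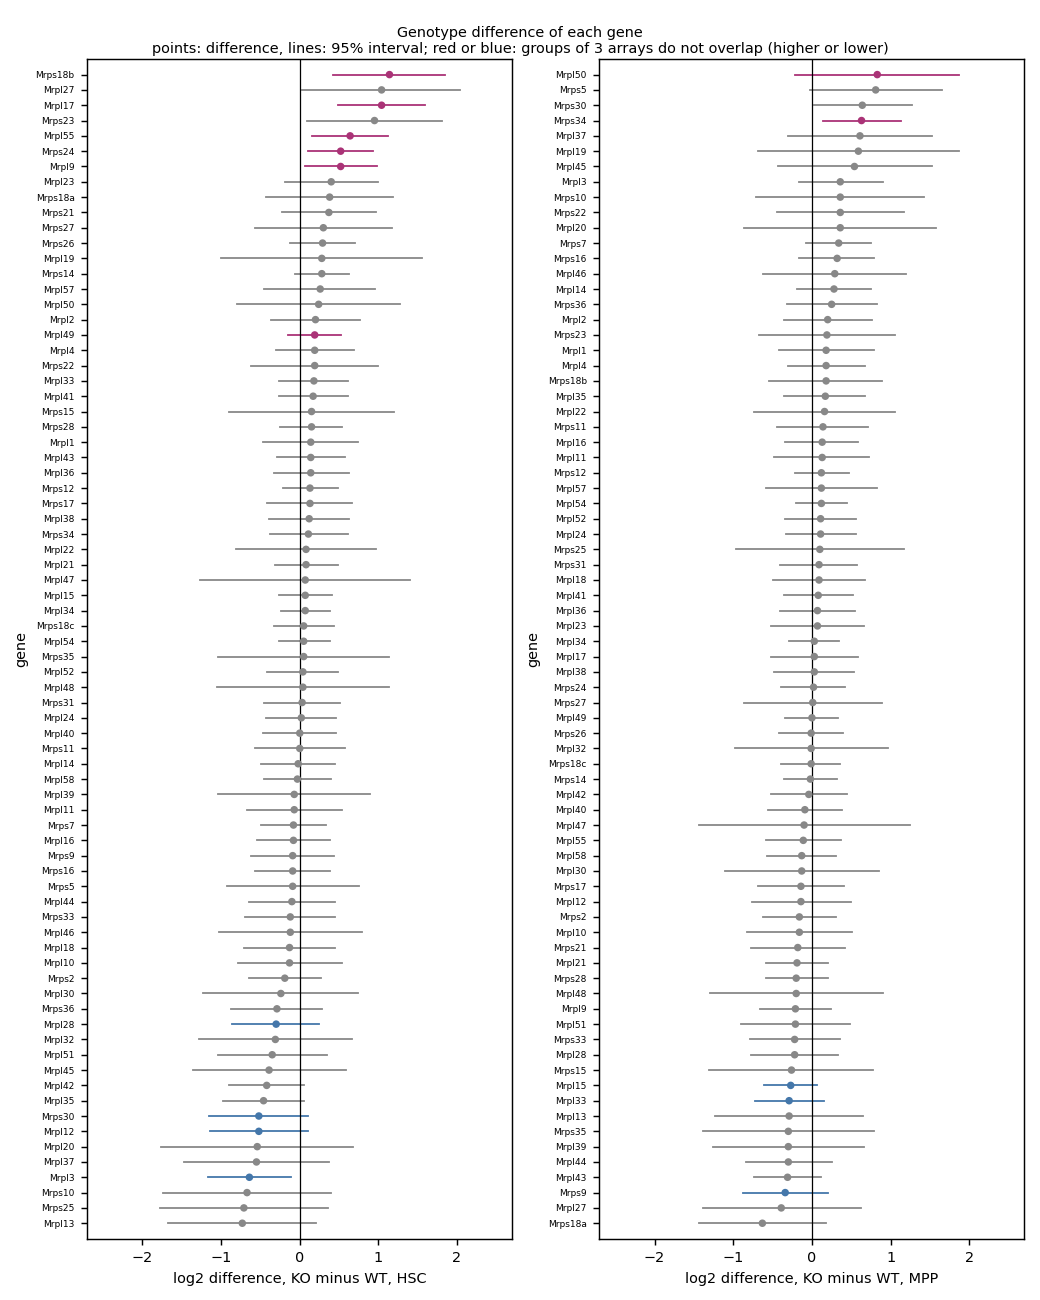
Log2 difference, KO minus WT, of each of the 76 genes in HSC (left) and MPP (right), sorted within each panel, with 95% intervals from limma. Red and blue mark genes whose 3 KO arrays all lie above or all below the 3 WT arrays, 10 genes in HSC and 5 in MPP, and most intervals cross 0.

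The same question was asked of the progenitors. None of the 76 passed in KO MPP against WT MPP (limma, adjusted p under 0.05; 0.0% of all genes passed), and 2 had an unadjusted p under 0.05 (2.63% against 3.19% of all genes). That count was 0 without mouse 3 (0.0% against 3.1% of all genes), 5 without mouse 2 (6.58% against 3.33%) and 4 without mouse 11 (5.26% against 4.12%). The median difference was 0.03, against 0.00 over all genes, and 42 genes were above 0 (55.3% against 50.5%). The arrays did not overlap for 5 (6.58% against 9.49%), with KO higher for Mrpl50 and Mrps34 and lower for Mrpl15, Mrpl33 and Mrps9. Of the 76 members, 0 were apart the same way in both populations, where 57 of the 14620 genes were (0.39%).

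Mrps34, a mitochondria-specific protein of the small subunit, read 6.28, 6.18 and 6.5 in WT MPP and 7.28, 6.73 and 6.84 in KO MPP. The difference was 0.63 (interval 0.14 to 1.13, adjusted p = 1.0), with every KO array above the WT arrays. Mrps30 read 6.13, 6.85 and 6.66 in WT and 6.56, 7.37 and 7.64 in KO, a difference of 0.64 (interval 0.02 to 1.27) with overlapping arrays, and 0.42 without mouse 70. Mrps5, the relative of bacterial S5, read 6.0, 6.65 and 6.43 in WT and 7.46, 7.59 and 6.47 in KO. Its difference of 0.81 came with KO mice 2 and 11 high and KO mouse 70 inside the WT range.

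Mrpl50, another mitochondria-specific gene, gave 7.51, 8.56 and 9.20 in WT MPP and 9.27, 9.24 and 9.23 in KO MPP. KO arrays were nearly level while WT arrays spanned more than a log2 unit, and the interval of the 0.83 difference ran from -0.21 to 1.87; without mouse 3 the difference was 0.37. On the lower side, Mrpl15 differed by -0.27 (interval -0.61 to 0.07), Mrpl43 by -0.31 and Mrps18a by -0.63 (interval -1.43 to 0.18), which was -0.34 without mouse 2, -0.32 without mouse 3 and -0.96 without mouse 11. The interval lay within a 2-fold change for 53 of the 76 genes, and no gene differed by 1 log2 unit or more.

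An interaction term asked whether KO minus WT was unequal in the stem cells and the progenitors. None of the 76 passed (limma, adjusted p under 0.05), and 0.0% of all genes did. An unadjusted p under 0.05 was reached by 6 (7.89% against 4.5% of all genes). That count was 0 without mouse 3 (0.0% against 3.63%) and 3 without mouse 2 (3.95% against 5.22%). It was 8 without mouse 11 (10.5% against 5.1%) and 8 without mouse 70 (10.5% against 4.68%). The median interaction was 0.01, as over all genes, and 40 of 76 were above 0 (52.6% against 51.8%). Mrps30 had the most negative value, -1.17 (interval -2.05 to -0.28, adjusted p = 1.0): in HSC it read 7.22, 7.39 and 6.97 in WT and 6.6, 6.5 and 6.92 in KO, the opposite way from MPP. Mrpl3 had -1.0 (interval -1.76 to -0.25), with MPP signals of 7.31, 7.93 and 7.11 in WT and 7.60, 7.86 and 7.98 in KO. Mrpl17 had 1.01 (interval 0.23 to 1.79), Mrpl55 0.75, Mrpl9 0.73, Mrpl27 1.43 and Mrpl37 -1.15. Without mouse 70 the value for Mrpl27 was 0.78, and without mouse 2 or without mouse 3 that for Mrpl37 was -0.6.

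Averaged over both populations of each mouse, KO against WT gave no passing member either (limma, adjusted p under 0.05; 0.0% of all genes). Here 2 members had an unadjusted p under 0.05, Mrps18b and Mrpl17 (2.63% against 4.45% of all genes). The count was 5 without mouse 11 (6.58% against 5.29%), 4 without mouse 12 (5.26% against 4.19%) and 1 without mouse 64 (1.32% against 3.96%). Members above 0 numbered 43 (56.6% against 52.7%), and 3 had mice that did not overlap, all higher in KO (3.95% against 8.69%). Mouse means of Mrps18b were 6.18, 6.03 and 6.14 in WT and 6.81, 7.02 and 6.49 in KO, a difference of 0.66 (interval 0.28 to 1.04, adjusted p = 1.0). For Mrpl17 the difference was 0.53 (interval 0.11 to 0.96), and for Mrps34 it was 0.37 (interval -0.06 to 0.80) or 0.18 without mouse 2. In this average 68 of the 76 intervals lay within a 2-fold change. The lower values were -0.51 for Mrpl13, -0.28 for Mrpl51 and -0.26 for Mrpl28. Without mouse 3 these were -0.26, -0.18 and -0.16, without mouse 12 they were -0.86 for Mrpl13 and -0.43 for Mrpl28, and without mouse 70 it was -0.16 for Mrpl51.

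**Figure D4:**
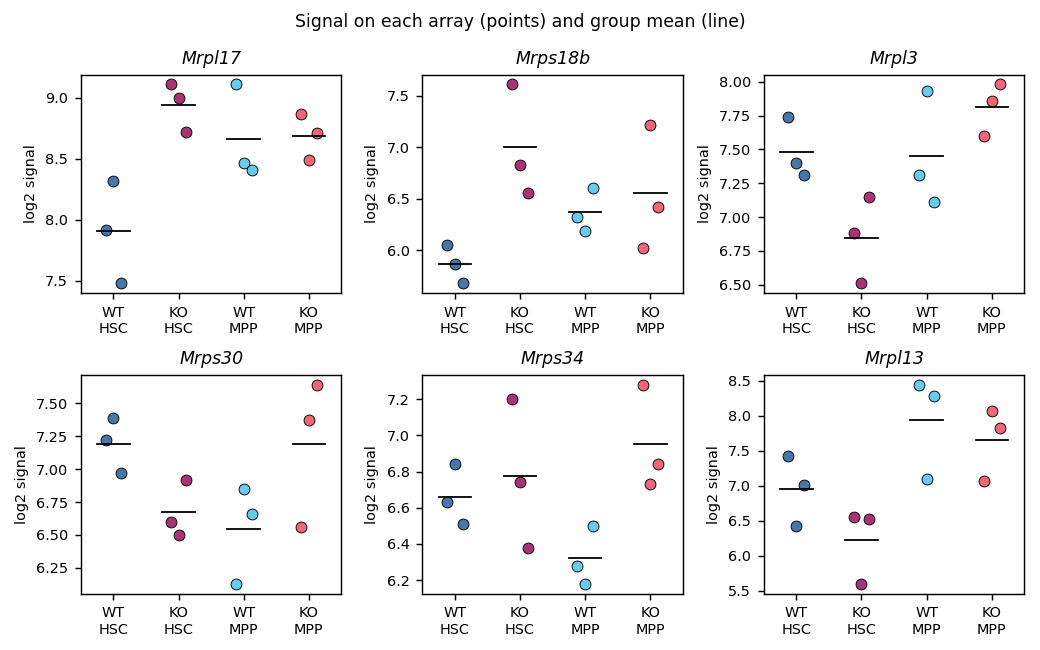
Log2 signal of 6 genes on each array (points, mice in the order 3, 12, 64 for WT and 2, 11, 70 for KO) with the group mean (line); each panel has its own axis range. Mrpl17 and Mrps18b are separate by genotype in HSC and overlap in MPP, Mrps34 is separate in MPP alone, and Mrpl3 and Mrps30 lie lower in KO HSC than in WT HSC.

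Setting HSC against MPP asks how the members compare between the sorted stem cells and the sorted progenitors. In WT mice none of the 76 passed (limma, adjusted p under 0.05), while 302 of 14620 genes did (2.07%). At an unadjusted p under 0.05 there were 8 members (10.5% against 14.1% of all genes). The count was 1 without mouse 3 (1.32% against 9.88%) and 5 without mouse 64 (6.58% against 9.79%). Leaving out a KO mouse takes away no WT array, so it changes the shared estimate of the spread and not these differences. That gave 5 without mouse 70 (6.58% against 13.6%) and 13 without mouse 2 (17.1% against 15.4%). The median difference, HSC minus MPP, was -0.09 for the members and 0.03 for all genes, and 29 of 76 were above 0 (38.2% against 54.2%). The arrays did not overlap for 18 (23.7% against 21.3%): 16 had lower signal in HSC and 2, Mrps30 and Mrps34, had higher signal.

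The 16 were Mrpl1, Mrpl15, Mrpl17, Mrpl18, Mrpl21, Mrpl27, Mrpl32, Mrpl33, Mrpl44, Mrpl55, Mrps14, Mrps18a, Mrps18b, Mrps22, Mrps24 and Mrps33. In WT the difference was below 0 for 31 of 45 genes with a bacterial counterpart (median -0.12) and 16 of 31 mitochondria-specific ones (median -0.002), and for 6698 of the 14620 genes tested. In KO the counts were 26 of 45 (median -0.06) and 17 of 31 (median -0.02), and 6266 of 14620. Proliferation markers were lower in WT HSC in the same comparison, 11 of 11 below 0 with a median of -1.07 and 4 called, among them Mki67 and Top2a. Their mean log2 signal on an array ran from 7.69 to 8.28 in WT HSC and 9.01 to 9.30 in WT MPP, and their part in the members' values was not tested. Neutrophil markers had a median of 1.46 there, with 0 called.

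Mrpl17 had the smallest adjusted p of the members in WT, with a difference of -0.76 (interval -1.31 to -0.20, adjusted p = 0.187), from the array values given above. Mrps18a, a large subunit protein, read 6.44, 7.06 and 6.55 in WT HSC and 8.32, 7.33 and 7.49 in WT MPP. The difference was -1.03 (interval -1.84 to -0.22, adjusted p = 0.227), with mouse 3 brightest in MPP, and -0.6 without that mouse. Mrpl27 differed by -1.14 (interval -2.15 to -0.14), its MPP arrays at 8.36, 8.08 and 7.99 lying above all WT HSC arrays. Mrps14, the relative of bacterial S14 in the head of the small subunit, differed by -0.36 (interval -0.69 to -0.02). In the other direction Mrps30 differed by 0.65 (interval 0.03 to 1.28; 0.43 without mouse 3), Mrpl52 by 0.45 and Mrpl54 by 0.26.

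In KO mice the same contrast again gave no passing member (limma, adjusted p under 0.05), against 184 genes in all (1.26%). There were 10 members at an unadjusted p under 0.05 (13.2% against 12.4% of all genes). The count was 6 without the HSC array of mouse 2 (7.89% against 10.5%) and 13 without mouse 11 (17.1% against 10.8%). The median was -0.03, against 0.05 over all genes, and 33 of 76 were above 0 (43.4% against 57.1%). The arrays did not overlap for 7 (9.21% against 17.1%), with HSC higher for Mrpl34, Mrpl54 and Mrps26 and lower for Mrpl3, Mrpl13, Mrpl50 and Mrps7. Proliferation markers were below 0 for 11 of 11 here too (median -0.82, 0 called), and their part was not tested.

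Mrpl3 came nearest to the threshold of all members in any comparison. Its KO HSC signals of 6.88, 6.51 and 7.15 lay below the KO MPP signals of 7.60, 7.86 and 7.98, a difference of -0.96 (interval -1.5 to -0.43, adjusted p = 0.0978). Mrpl13, the relative of bacterial L13, read 6.55, 5.60 and 6.52 in KO HSC and 7.06, 8.06 and 7.82 in KO MPP. Its difference was -1.42 (interval -2.36 to -0.48, adjusted p = 0.166), and -0.90 without mouse 11, which was the lowest in HSC and the highest in MPP. In WT the gene read 7.43, 6.42 and 7.01 in HSC and 8.44, 7.09 and 8.28 in MPP, a difference of -0.98 (interval -1.92 to -0.04) with overlapping arrays.

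Mrps7, the relative of bacterial S7 in the head of the small subunit, read 7.64, 7.29 and 7.58 in KO HSC and 8.22, 7.73 and 8.19 in KO MPP, a difference of -0.54 (interval -0.95 to -0.13). Mrpl18, whose bacterial relative binds 5S RNA in the central protuberance, differed by -0.76 (interval -1.34 to -0.18) with overlapping arrays, -0.37 without mouse 2 and -1.16 without mouse 11; its promoter is printed above. Differences of 1 log2 unit or more were also reached by Mrpl20 (-1.41), Mrps25 (-1.04), Mrps5 (-1.03) and Mrpl45 (-1.03). Without the HSC array of mouse 2 the values were -0.83 for Mrpl20 and -0.65 for Mrps25. Mrps5 had -0.63 without mouse 2 and -1.69 without mouse 70. Mrpl45, which anchors the large subunit to the inner membrane, read 6.99, 8.54 and 6.91 in KO HSC and 8.93, 7.78 and 8.82 in KO MPP, mouse 11 running against the other mice. Without mouse 11 its difference was -1.92 and it passed (adjusted p = 0.0242), the only call of a member under any setting tried, while it was -0.57 without mouse 2 and -0.59 without mouse 70. Mrps26 (0.49), Mrpl9 (0.48) and Mrpl55 (0.47) had the higher signal in KO HSC. Leaving out mouse 11 or mouse 70 gave 0.29 or 0.74 for Mrpl9, and leaving out mouse 2 gave 0.26 for Mrpl55.

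**Figure D5:**
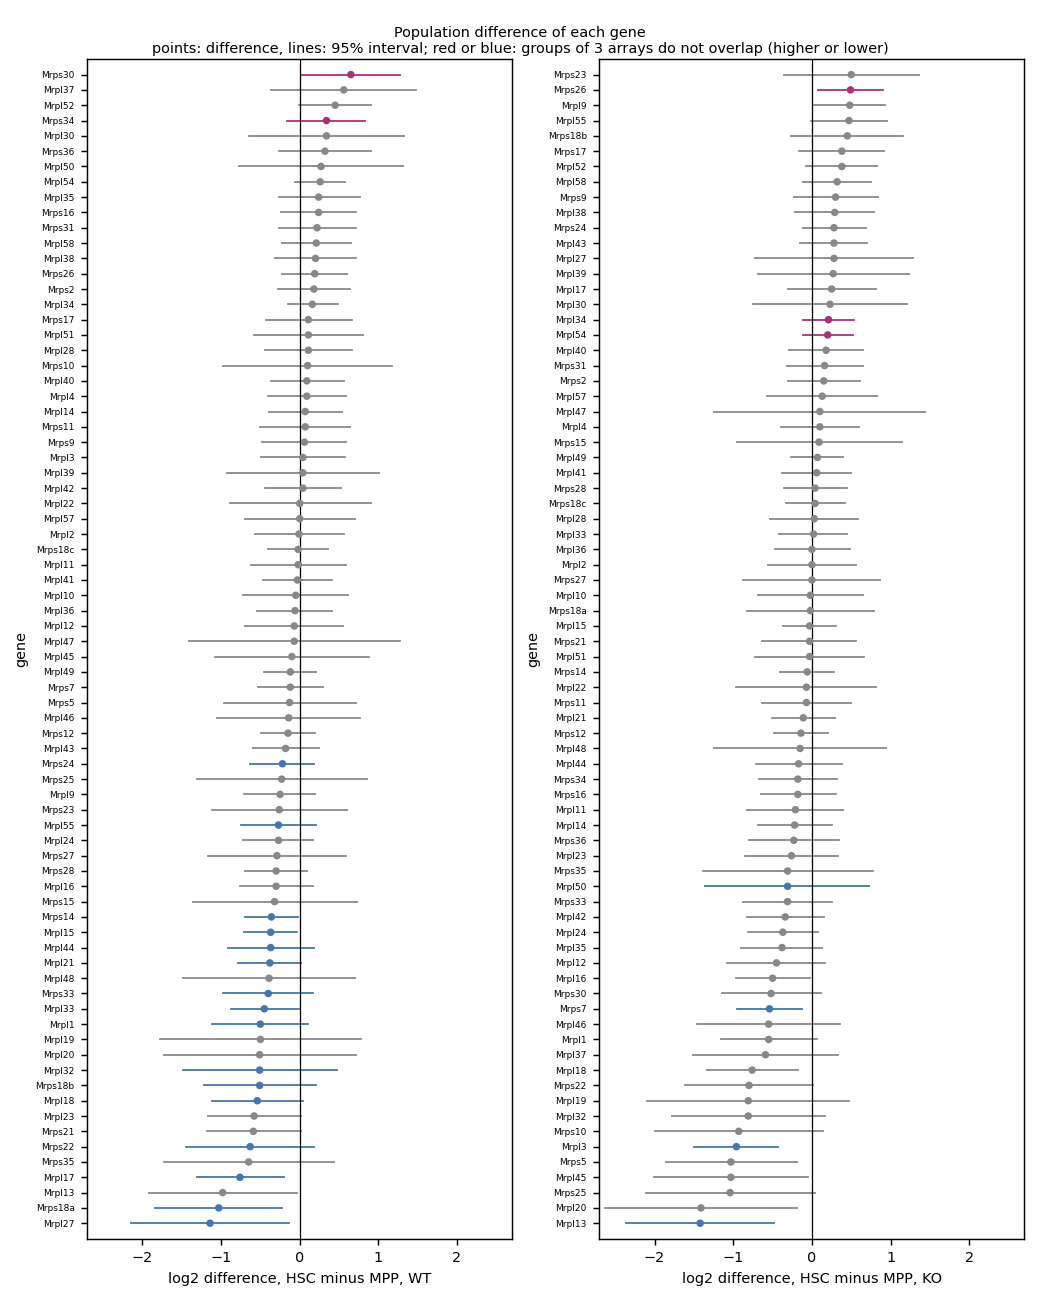
Log2 difference, HSC minus MPP, of each of the 76 genes in WT (left) and KO (right), sorted within each panel, with 95% intervals from limma. Blue marks genes whose 3 HSC arrays all lie below the 3 MPP arrays, 16 in WT and 4 in KO, and red those that lie above, 2 in WT and 3 in KO.

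Other genes of mitochondrial translation gave few calls. Of the 4 subunits with other names, among them Dap3 of the small subunit, of 24 assembly genes tested, 13 translation factors, 19 mitochondrial aminoacyl-tRNA synthetases and 15 genes of mitochondrial DNA and RNA maintenance, 0 passed in any of the 6 comparisons (limma, adjusted p under 0.05). Unadjusted, 1 assembly gene passed 0.05 in KO against WT HSC (4.17% against 6.29% of all genes). It was Afg3l2, a subunit of the protease that processes the Mrpl32 precursor, with a difference of 0.72 (limma, adjusted p = 0.638). The 4 subunits with other names had a median of -0.41 in WT and -0.38 in KO for HSC minus MPP. All 4 were below 0 in each genotype, while 54.2% of all genes in WT and 57.1% in KO were above 0. Mtif3, an initiation factor, differed by -1.40 in KO against WT MPP (adjusted p = 1.0).

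Of 10 regulators of mitochondrial biogenesis, 1 passed, in WT alone: Myc was lower in HSC than in MPP by a log2 difference of -1.48 (limma, adjusted p = 0.0435). For HSC minus MPP, 7 of the 10 were below 0 and 3 above in WT (30.0% above, against 54.2% of all genes). In KO 6 were below and 4 above (40.0% above, against 57.1%). Mycn was higher in HSC, by 0.83 in WT (adjusted p = 0.235) and by 1.29 in KO (adjusted p = 0.0748). Ppargc1a had a mean log2 signal of 7.67 ± 1.1 in WT HSC and 5.93 ± 0.99 in WT MPP (SD, n = 3). In KO against WT HSC, Myc differed by 1.27 (adjusted p = 0.551) and its interaction was 1.47 (adjusted p = 0.994). Nrf1, whose product binds the core searched above, differed by -1.16 in KO against WT HSC (adjusted p = 0.638) and by -0.92 in MPP (adjusted p = 1.0). Among 83 oxidative phosphorylation subunits, 1 was called lower in HSC than MPP in WT (Atp5g3, a subunit of the ATP synthase ring, -0.76, adjusted p = 0.0407) and 1 in KO (Sdhb, the iron-sulfur subunit of complex II, -1.08, adjusted p = 0.0446). Their median for HSC minus MPP was -0.14 in WT and -0.06 in KO, and for KO minus WT 0.10 in HSC and 0.01 in MPP. The 62 cytosolic ribosomal protein genes tested had medians of 0.01 and 0.06, and 0.03 and 0.02, with 0 called. Of 38 proteasome subunits, 1 was called in WT (Psmc5, an ATPase of the base, -0.60, adjusted p = 0.0388), and their medians for HSC minus MPP were -0.43 in WT and -0.10 in KO.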

How the data were processed

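The authors deposited a table of RMA-normalized log2 signals for 22142 probe sets on 12 arrays, 1 per sorted population and mouse; RMA and limma are named in the submitters' processing notes, without versions. Labelling started from 300 pg of total RNA with NuGEN amplification, per the labels' protocols. RMA brings the arrays close to a common distribution, so a shift of all transcripts together is not visible. The deposited medians still ran from 5.81 (MPP of WT mouse 12) to 5.91 (HSC of KO mouse 2). By population they were 5.85 to 5.91 in HSC and 5.81 to 5.87 in MPP. Probe sets were named from GEO's platform annotation (19527 with 1 symbol, 0 with several, 2615 with none), and the brightest probe set of each gene was kept. A model over all 4 groups was fitted with limma 3.58.1 in R 4.3.3 on 14620 genes above the lowest 25% of mean signal, and p-values were adjusted over all of them (Benjamini-Hochberg). KO against WT over both populations used 1 mean per mouse. P-values measure the spread between mice within a group, pooled over the 4 groups in the main model and moderated by limma over genes. The script was tested on simulated data. Members and lists were chosen with earlier results of these data known. For each comparison the named members are the 3 above and 3 below 0 with the smallest p, joined by the brightest and dimmest probe sets, the Mrps18 relatives, Mrps30 and the stalk and membrane anchor genes; other genes named were chosen after their values were seen. HSC and MPP came from the same animals, so the mouse number pairs them. The main model did not use that pairing and treated the 12 arrays as independent. The correlation of the HSC and MPP deviations of a mouse was 0.0323 to 0.0905. Of the 6 HSC arrays, 2 correlated best with the MPP array of their own mouse number. Alternatives covered filters, normalization, variance, array weights, probe sets, the block and left-out mice or arrays.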

Additional observations from a re-analysis of the deposited data

How the results depend on the processing

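Of the recomputed counts and medians over the members, 176 kept their side of the threshold or moved by less than the spread between replicates, and 4 moved further. Recomputed differences of named members kept their direction and their side of the threshold in 759 cases, and 1 (Mrpl45, below) passed the threshold. Many of these cases could not turn in direction. Filters, the variance setting, fitting only the arrays compared, the block and probe set averaging leave a member's difference unchanged. In those cases only the side of the threshold was open. With the mouse number as a replicate block, 0 members were called in the 5 comparisons fitted that way, and no call of a member changed. The block can alter only the spread here. The median differences therefore had to stay at 0.05 for KO against WT in HSC and -0.09 for HSC against MPP in WT. Leaving out each mouse in turn gave a median for HSC against MPP in WT of -0.16 (without mouse 12) to -0.06 (without mouse 64), and for the interaction of -0.11 (without mouse 64) to 0.12 (without mouse 12). The medians of KO against WT turned below 0 in HSC without mouse 64 (-0.01) and in MPP without mouse 12 (-0.02). Leaving out each mouse gave 0 to 1 members called for HSC against MPP in KO, the 1 being Mrpl45 without mouse 11 (-1.92, adjusted p = 0.0242). The cause was not tested. Without the HSC array of KO mouse 2, 0 members were called in any comparison, and the median of KO against WT in HSC was 0.01. A second quantile normalization gave -0.04 for HSC against MPP in WT. With 3 arrays a group and all arrays kept, no difference of a member could be told from the spread between mice at the adjusted threshold. Those of 1 log2 unit or more did not pass the test either.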
